A study of Mus musculus with 12 samples.

Results

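Gene expression was compared in microglia of ZEB1 knock-down mice after and before transient middle cerebral artery occlusion (tMCAO), a model of stroke in which a main artery of the brain is blocked and then reopened. The comparison holds 4 of the 12 arrays of the series, 2 after and 2 before tMCAO, chosen by their labelled genotype and treatment. All mice were male and 8 weeks old, and the cells of every group were enriched with magnetic beads for CX3CR1, a chemokine receptor of microglia that monocytes also carry. The same slide of 8 arrays carried 2 further groups before tMCAO, ZEB1 overexpression and wild type, with 2 arrays each, which served to set each level beside 6 arrays from uninjured brain. How ZEB1 was knocked down or overexpressed, in which cells, and how long after tMCAO the cells were taken is not in the labels. Nor do they say whether replicates were separate animals, so the p-values cover the spread among these arrays alone, and that spread may be technical.

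Microglia are the resident macrophages of the brain. After ischaemia they lose part of their resting profile, release chemokines and cytokines, take up debris and divide, while monocytes and neutrophils enter from the blood. ZEB1 is a zinc finger transcription factor that binds E-boxes, represses epithelial genes and acts together with TGF-beta signalling.

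Levels are log2 intensities relative to the 75th percentile of their array, so a level of 0 equals that percentile and a difference of 1 is a doubling. Differences are given as after minus before with the standard error of the limma fit and 2 arrays per group unless stated, and a gene was called changed at a Benjamini-Hochberg adjusted p under 0.05. The 75th percentile of intensity was 3690 and 2566 on the arrays after tMCAO and 3702 and 3683 before. Between 62.78% and 73.47% of spots on the 4 arrays were well above background. The scanner software marked 20.82% and 23.53% of spots after tMCAO as non-uniform or outlying against 1.873% and 1.027% before. In the highest of 4 classes of probe brightness 59.86% were marked after tMCAO and 5.119% before. High shares were not limited to injured brain: uninjured overexpression had 23.74% and 18.19%, from the slide side of the later pair. Uninjured wild type, from the opposite side, had 3.285% and 1.263%. What set these shares was not tested. Marked spots were left out, so many bright genes had a value on 1 array after tMCAO or on neither. Of all calls, 599 rest on 1 array after tMCAO; there the lone array is assumed to vary like the other groups, and the standard error and p hold no spread of the later pair. Across genes and transcripts, with marked spots kept, correlations were 0.975 between the arrays after tMCAO, 0.990 between those before, and 0.935 to 0.959 between the groups. Both arrays after tMCAO lay on the other side and in the other row of the slide from both arrays before, so time cannot be told apart from side and row within the knock-down.

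Zeb1 itself was measured first. With all spots kept, its brighter probe read -0.66 and -0.67 after tMCAO and -0.11 and -0.79 before. Both later arrays fell inside the range of the earlier pair. A second Zeb1 probe read -0.98 and -0.81 after tMCAO against -0.24 and -0.68 before, below all 6 early arrays, a difference of -0.44 that was not tested. The difference of the brighter probe was -0.22 (95% interval -0.78 to 0.34, adjusted p = 0.538, limma). Before tMCAO the knock-down read 0.13 above wild type (95% interval -0.43 to 0.69, adjusted p = 0.984), so a lower Zeb1 signal in the libraries labelled knock-down before tMCAO was not detected with this probe, and the overexpression libraries, at -0.28 and -0.36, also lay within this range. It is not known here whether the probe lies in a part of the transcript that the knock-down alters.

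After tMCAO, 2728 of 24648 tested genes and transcripts rose (11.1%) and 1732 fell (7.03%), 18.1% in all. Measured rises were larger than falls: the median size was 1.47 among rises and -1.07 among falls. On the log2 scale 786 rose by at least 2 and 131 fell by as much. Background limits these sizes: 411 falls were not well above it on either array after tMCAO, against 184 rises before. The lowest level well above background was -5.36 and -5.51 after tMCAO and -7.09 and -6.24 before, which leaves falls less room. Its part in the difference in size was not tested. Of the rises, 2155 (79%) lay above all early arrays of the slide on every later array with a value, and of the falls 1461 (84.35%) lay below them, against 16.6% and 20.2% of all genes tested. The early arrays include the pair that made the calls, and all of them entered the fit. Higher shares among called genes thus follow in part from the calling and are no separate support. The count rested on both early arrays: it was 1038 without replicate 1 and 825 without replicate 2 of the group before tMCAO, and 2254 without replicate 1 after tMCAO. Against ZEB1 overexpression before tMCAO, on the same side of the slide, 1858 genes were called (7.87%), and against wild type before tMCAO, in the same row, 1972 (8.01%); these comparisons also differ in genotype and share the arrays after tMCAO. Among groups before tMCAO, no gene was called by limma between overexpression and knock-down (3716 at an unadjusted p under 0.05) or between knock-down and wild type (2654). The balance of directions depended on the scaling: 61.2% of the calls were rises here, 44.6% after quantile normalization and 39.3% after subtraction of each array's median, which put the median of all genes at -0.23 instead of 0.04.

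**Figure D1:**
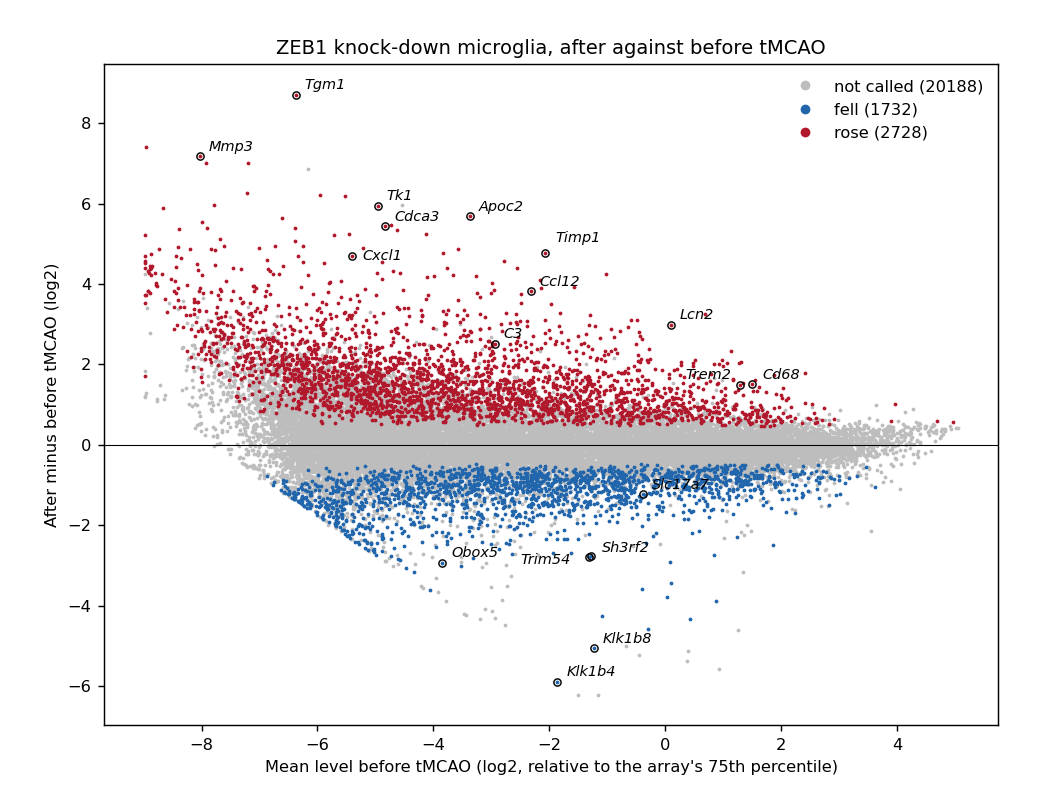
Each point is a gene or transcript, with its mean level before tMCAO on the x axis and its difference after minus before on the y axis, both on the log2 scale, and the colours give the calls. The 2728 rises reach 8.71 for Tgm1, and the falls beyond -4 include Klk1b4 and Klk1b8; the 20188 points in grey were not called.

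The largest rise was that of Tgm1, which encodes a transglutaminase known from the cornified envelope of skin. Its level was 2.35 and 2.32 after tMCAO against -6.69 and -6.06 before, and between -7.37 and -5.63 on the other early arrays. The difference was 8.71 ± 0.48 (adjusted p = 0.0021), and no early array came near the later pair. Mmp3, the matrix protease stromelysin 1, read -0.06 and -1.65 after tMCAO and was not well above background on either array before, which makes it at least 56.1-fold higher (adjusted p = 0.00315). Such bounds set the mean of the brighter group against the lowest level that was well above background on each dim array. Promoters are shown for 3 genes that hold a searched motif, each being the named gene with the largest difference that holds it: Mmp3 for AP-1, the site of Fos and Jun factors, Klk1b4 for the E-box that ZEB1 binds, and Tgm1 for an interferon element. They are the 250 bases before the RefSeq start (GRCm38.p6), written 5' to 3' on the gene's strand with the match in capitals.
Mmp3 (chr9:7445572-7445821, plus strand): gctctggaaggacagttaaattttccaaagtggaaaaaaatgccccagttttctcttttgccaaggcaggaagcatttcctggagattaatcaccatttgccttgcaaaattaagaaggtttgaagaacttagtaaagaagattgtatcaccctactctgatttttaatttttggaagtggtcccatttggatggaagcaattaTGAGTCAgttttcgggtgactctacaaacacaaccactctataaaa
Klk1b4 (chr7:44207183-44207432, plus strand): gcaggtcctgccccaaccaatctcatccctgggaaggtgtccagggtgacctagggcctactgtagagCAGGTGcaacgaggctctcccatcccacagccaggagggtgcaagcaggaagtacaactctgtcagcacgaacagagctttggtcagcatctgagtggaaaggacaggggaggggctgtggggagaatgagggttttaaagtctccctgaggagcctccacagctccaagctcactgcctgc
Tgm1 (chr14:55713493-55713742, minus strand): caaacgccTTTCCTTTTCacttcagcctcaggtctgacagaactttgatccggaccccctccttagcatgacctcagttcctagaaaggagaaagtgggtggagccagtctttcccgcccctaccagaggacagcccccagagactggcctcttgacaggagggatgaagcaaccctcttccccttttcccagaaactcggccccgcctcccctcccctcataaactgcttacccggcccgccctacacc
The AP-1 motif TGANTCA began 46 bases before the start of Mmp3, the E-box CAGGTG 182 bases before that of Klk1b4, and the interferon element (GAAA, any 2 bases, GAAA) 242 bases before that of Tgm1, where it reads on the opposite strand. Both strands were searched in 27025 promoters. AP-1 was held by 6.87% of all promoters, 7.35% of those of rising genes and 5.14% of those of falling genes. The E-box, as CAGGTA or CAGGTG, was held by 25.2%, 20.3% and 28%, and the interferon element by 3.04%, 3.79% and 1.89%. Of the other motifs searched, the NF-kappaB motif (GGG, any 5 bases, CC) was held by 45.4%, 57% and 51%, and the hypoxia element ACGTG by 16.6%, 16.5% and 20.7%. Among the promoters of all genes tested the shares were 5.43% for AP-1, 23.1% for the E-box, 2.61% for the interferon element, 56.6% for NF-kappaB and 19.5% for the hypoxia element, and no difference between these shares was tested. A match describes these letters only.

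Among the 12 largest rises were cell division genes. Tk1, the thymidine kinase of replicating cells, read 1.46 and 0.52 after tMCAO and -4.97 and -4.95 before, a difference of 5.95 ± 0.42 (adjusted p = 0.00282). Cdca3, a trigger of mitotic entry, differed by 5.44 ± 0.34, Ska1, a kinetochore protein, by 5.39 ± 0.50, and the mitotic cyclin Ccnb1 by 5.21 ± 0.52. Its relative Ccnb1-ps was at least 52.2-fold higher; reads of such close copies on a probe cannot be told apart here. Apoc2, a cofactor of lipoprotein lipase, read 2.68 and 1.95 after tMCAO and -3.46 and -3.29 before, a difference of 5.69 ± 0.32 (adjusted p = 0.0021). The transcription factor Tfec of the macrophage lineage was at least 18.3-fold higher, the serpin Serpina3i at least 17.6-fold, Nxpe5 at least 14.8-fold and the peptide hormone Ucn2 at least 7.49-fold. Of these 12, 11 were called in all 4 fits that left out an array, the exception being Ucn2 (adjusted p = 0.0623 without replicate 1 and 0.0533 without replicate 2 before tMCAO).

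Of 18 mitosis and replication genes 12 were measured, meaning that they had an unmarked value in both groups. All 12 rose, with a median of 3.36 against 0.04 for all genes tested. Cdk1, the mitotic kinase, read 0.66 on the 1 array with an unmarked spot after tMCAO against -5.08 and -5.97 before, a difference of 6.19 ± 0.62 (adjusted p = 0.00723), or 5.63 ± 0.56 with the marked array at -0.46. The checkpoint kinase Bub1 was at least 53.9-fold higher, also on 1 later array. Ccnb2 read 0.10 and -0.79 after tMCAO and -5.13 and -4.64 before. With marked spots kept, where 10.1% of all genes rose and 6.47% fell (16.6% in all), 18 of 18 members rose, among them Mki67, the antigen of cycling cells, by 4.74 ± 0.47 and Top2a, a topoisomerase of replicating cells, by 5.14 ± 0.68.

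**Figure D2:**
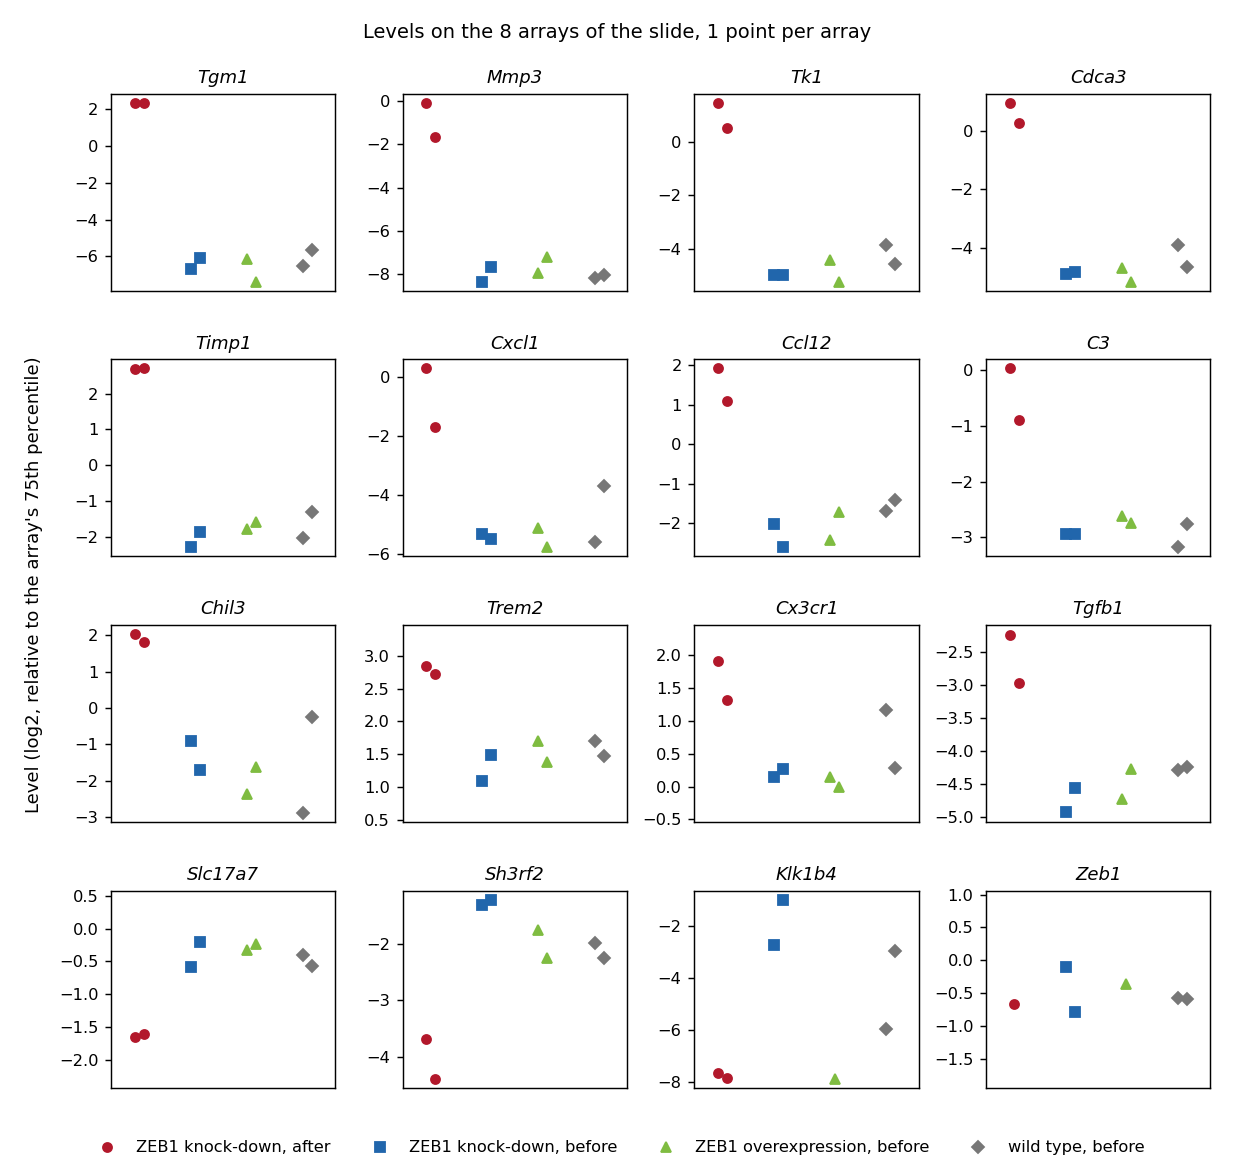
Levels of 16 named genes on the 8 arrays, 1 point per unmarked array, with red circles for the knock-down after tMCAO and the other symbols for the 3 groups before; the y axes are log2 and differ between panels. Tgm1 reads 2.35 and 2.32 in red and no higher than -5.63 elsewhere, whereas the red point of Zeb1 lies among the others.

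Activated microglia genes, those that microglia switch on around damage and plaques, rose in 9 of 11 measured members with a median of 2.64. With marked spots kept, 12 of 18 members rose, beside 10.1% of all genes, and the median was 1.39. Cst7, a cathepsin inhibitor, read 0.73 on 1 array after tMCAO against -4.66 and -4.82 before, a difference of 5.47 ± 0.23 (adjusted p = 0.0021); with the marked second array, at -0.49, it was 4.86 ± 0.39. Lgals3, the lectin galectin 3, rose by 4.25 ± 0.31, the matrix protein Spp1 by 3.25 ± 0.27 and Gpnmb by 3.22 ± 0.19, each with 1 array after tMCAO. For Gpnmb that array read -0.19 and the marked one 1.16, which gave 3.90 ± 0.41 with both. Apoe, the main brain apolipoprotein, had no unmarked pair of values; with marked spots kept it read 4.53 and 4.89 after tMCAO and 4.66 and 4.54 before, which overlap (0.11 ± 0.18, adjusted p = 0.698).

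Of 16 homeostatic microglia genes 10 were measured; 4 rose, none fell, and the median was 0.85. Cx3cr1, the receptor used for the enrichment, read 1.92 and 1.32 after tMCAO against 0.14 and 0.27 before, a rise of 1.41 ± 0.33 (adjusted p = 0.0362), although 1 wild type array before tMCAO reached 1.17. That call was lost without replicate 1 after tMCAO (adjusted p = 0.115) and without either array before (0.134 and 0.126). Trem2, a lipid receptor of microglia, read 2.84 and 2.72 against 1.09 and 1.48 and rose by 1.49 ± 0.20. Olfml3 rose by 1.94 ± 0.36 and Aif1, which encodes IBA1, by 1.17 ± 0.18 on 1 later array. Siglech read lower on 1 later array (-1.60 ± 0.45) without passing the limma test (adjusted p = 0.081). With the marked array, at 1.32, the difference was -1.23 ± 0.45 (adjusted p = 0.109, limma). The overexpression arrays before tMCAO read 0.17 and 1.04 for this gene. With marked spots kept, 8 of 16 members rose, including Fcrls by 2.59 ± 0.33, while P2ry12, the ADP receptor of resting microglia, read 0.41 and 1.45 after tMCAO and 1.44 and 1.31 before (adjusted p = 0.435).

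Chemokines rose in 8 of 11 measured members, with a median of 2.96. Cxcl1, which attracts neutrophils, read 0.28 and -1.72 after tMCAO and -5.32 and -5.50 before. It rose by 4.69 ± 0.82 (adjusted p = 0.0174), and the call was lost without either array before tMCAO (adjusted p = 0.0767 and 0.0906). The monocyte attractant Ccl2 rose by 4.58 ± 0.53 on 1 later array. Its neighbour Ccl12 read 1.91 and 1.08 against -2.03 and -2.62 and rose by 3.82 ± 0.38, and Ccl4 rose by 3.60 ± 0.65, a call lost without either array before tMCAO (adjusted p = 0.0907 and 0.0801). Among inflammatory cytokines, enzymes and receptors 2 of 15 measured members rose, near the 11.1% of all genes: Osm, a cytokine of the interleukin 6 family, rose by 2.91 ± 0.34 and the endotoxin co-receptor Cd14 by 2.12 ± 0.19. Il1b and Tnf, the classical early cytokines, differed by 1.31 ± 0.52 and 1.37 ± 0.47 and did not pass the limma test (adjusted p = 0.122 and 0.091). For Il1b the other probe went the opposite way. With marked spots kept Il6 rose by 3.54 ± 0.38.

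NF-kappaB subunits and feedback genes rose in 6 of 13 members with a median of 0.61, led by the co-factor Bcl3, which read -0.21 and -0.56 after tMCAO against -4.26 and -3.94 before (3.71 ± 0.41, adjusted p = 0.00614). Zc3h12a, an RNase that limits cytokine messages, rose by 1.91 ± 0.43 and the apoptosis inhibitor Birc3 by 1.22 ± 0.20. Of 12 measured interferon response genes 1 rose, Oas2 (1.17 ± 0.23), a share close to the 11.1% of all genes, although the median of the list was 0.85. The summed level of that list was 41.7 and 17.2 after tMCAO against 13.2 and 11.4 before, so replicate 1 stood well above replicate 2.

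Complement genes rose in 8 of 9 measured members with a median of 1.76. The anaphylatoxin receptors C5ar1 and C3ar1 rose by 3.32 ± 0.38 and 3.24 ± 0.44. C3, the central component, read 0.03 and -0.89 after tMCAO and -2.95 and -2.94 before (2.52 ± 0.31, adjusted p = 0.00752), and C4b rose by 1.86 ± 0.18. Alternative activation genes, a set linked with repair and interleukin 4, rose in 5 of 8 members with a median of 1.35. Chil3, a chitinase-like secreted protein, read 2.03 and 1.81 against -0.91 and -1.71 and rose by 3.23 ± 0.83 (adjusted p = 0.045), but wild type arrays before tMCAO spanned -2.90 to -0.25 and the call was lost in each of the 4 fits that left out an array. Socs3, a feedback inhibitor of cytokine signalling, rose by 2.67 ± 0.29 and Il4ra by 2.43 ± 0.18, each on 1 later array. The other probe of Il4ra went the opposite way, and the mean of both gave 0.66 ± 0.34 (adjusted p = 0.207). Arg1, the arginase of this state, had no unmarked value after tMCAO; with marked spots kept it read 0.97 and 1.22 against -5.58 and -5.61 and rose by 6.69 ± 0.17 (adjusted p = 0.000196), and the scavenger receptor Msr1 was at least 53.7-fold higher.

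Matrix metalloproteinases and their inhibitors rose in 6 of 10 members with a median of 1.87, or 1.70 with the 3 members that were dim before tMCAO at their bound. Timp1, an inhibitor of these proteases, read 2.68 and 2.71 after tMCAO and -2.30 and -1.87 before (4.78 ± 0.27, adjusted p = 0.0021). Mmp12 was at least 4.04-fold higher on 1 later array, or at least 11.03-fold with the marked one. The neutrophil collagenase Mmp8 rose by 2.35 ± 0.54, a call lost in all 4 fits that left out an array (adjusted p = 0.082 to 0.15). In the TGF-beta list 2 of 10 measured members rose, beside 11.1% of all genes tested, with a median of 0.13. Tgfb1, the ligand, read -2.24 and -2.97 after tMCAO and -4.94 and -4.57 before, with the other early arrays between -4.73 and -4.25; it rose by 2.15 ± 0.29 (adjusted p = 0.00921), a call lost without replicate 1 before tMCAO (adjusted p = 0.056). With marked spots kept the inhibitory Smad7 fell by 1.80 on the log2 scale and Tgfbi rose by 2.86 ± 0.24.

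Of 14 measured epithelial genes and ZEB1 partners 1 rose and 1 fell, with a median of -0.26. These counts are near or under the shares of all genes tested, of which 11.1% rose and 7.03% fell. Snai1, a repressor of the same class as ZEB1, read -4.05 and -4.21 against -6.43 and -6.29 and rose by 2.23 ± 0.17 (adjusted p = 0.00315). The polarity gene Pard6b read -3.90 and -3.96 against -3.23 and -2.83 (-0.90 ± 0.21, adjusted p = 0.0357), a call lost in all 4 fits that left out an array. With marked spots kept Zeb2, the relative of Zeb1, read 1.97 and 2.27 after tMCAO, overlapping the pair before (adjusted p = 0.997).

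Apoptosis and cell death genes rose in 7 of 11 members with a median of 1.02. The largest were those of necroptosis and inflammatory caspase genes: the kinase Ripk3 was at least 17.9-fold higher, its effector Mlkl rose by 2.33 ± 0.52 on 1 later array (2.94 ± 0.52 with the marked one; lost in all 3 fits that left out an array and gave a value), and the inflammatory caspase Casp4 by 2.74 ± 0.43. In the heme and iron list 2 of 7 members rose, the siderophore-binding Lcn2 by 2.99 ± 0.45 and the heme oxygenase Hmox1 by 2.88 ± 0.24 on 1 later array. Lysosomal genes rose in 2 of 5, the protease Ctsh by 2.06 ± 0.14 and Cd68 by 1.50 ± 0.16. Cholesterol and lipid genes rose in 3 of 7, with the fatty acid receptor Cd36 at 1.96 ± 0.25. Of 6 class II presentation genes 1 rose, H2-DMb1 (1.62 ± 0.26), of 10 glycolysis and hypoxia genes 1, Hk2, and of 8 heat shock genes 1, Hspb1, shares near the 11.1% of all genes. The summed class II level was 8.31 and 3.34 after tMCAO against 2.54 and 3.37 before. Of 5 class I genes 2 rose, Psmb9 and H2-D1, both on 1 later array. Psmb9 and Hk2 were not called with the marked array kept (adjusted p = 0.108 and 0.0604). Of 9 immediate early genes none was called by limma. Ier3 read 0.97 higher on 1 later array (adjusted p = 0.119), and Egr2 differed by -0.93 (adjusted p = 0.382). Of 7 respiratory chain genes none was called, and of 3 ribosomal protein genes 1 rose, Rpl10a, a call lost in all 4 fits that left out an array. Among the list medians that turned negative when each array's median was subtracted instead were those of the TGF-beta, glycolysis, ribosomal and respiratory lists. The lowest median of the heat shock list over all settings was -0.088.

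**Figure D3:**
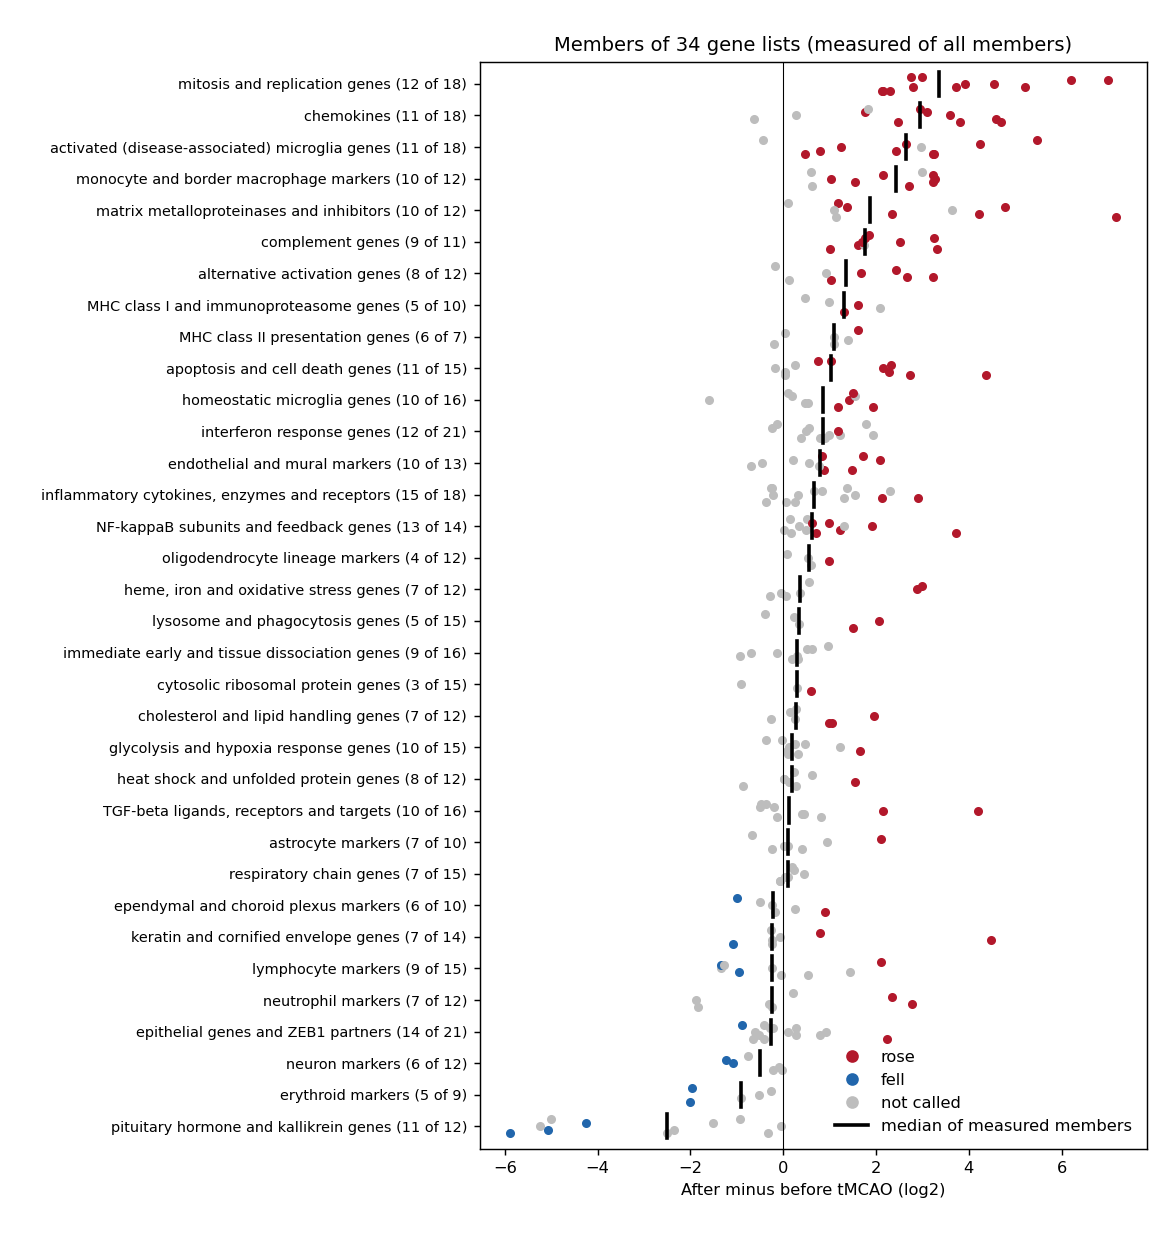
Differences after minus before (log2) of the measured members of 34 gene lists, 1 point per gene, coloured by call, with a black bar at the median; the labels give measured of all members. All 12 measured mitosis and replication genes are in red around a median of 3.36, and the pituitary hormone and kallikrein genes lie lowest, around -2.52.

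Markers of other cells were measured beside these groups. Their counts of calls stand beside 11.1% rises and 7.03% falls among all genes tested. Summed over 12 monocyte and border macrophage markers, the level was 41.1 and 41.8 after tMCAO against 16.5 and 17.0 before, and 7 of 10 measured members rose with a median of 2.43. They include Ms4a7 (3.27 ± 0.46), the border macrophage gene Cbr2 (2.71 ± 0.23), and the monocyte receptor Ccr2, which read 0.08 and -2.02 against -3.97 and -4.43 (3.23 ± 0.85, adjusted p = 0.0493, lost in 3 of the 4 fits that left out an array). Homeostatic microglia markers summed to 77.0 and 71.4 against 51.6 and 51.8. Neutrophil markers summed to 20.3 and 19.3 against 14.0 and 13.5, while 1 wild type array before tMCAO reached 20.6. Of 7 measured neutrophil markers 2 rose, Cxcr2 (2.77 ± 0.32) and Mmp8, 4 read lower without passing the test, down to -1.88, and the median was -0.25, or 0.40 with marked spots kept. All 12 monocyte markers and all 16 homeostatic markers were well above background on all 4 arrays. Their part in the rises of chemokine, complement, activation and cell division genes was not tested, and in these bulk samples more cells of a type and more RNA per cell cannot be told apart.

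The label of microglia was also checked against the other brain cells. All 12 neuron, 10 astrocyte and 12 oligodendrocyte markers were well above background on all 4 arrays, so RNA of genes typical of those cells was present in the enriched samples. Among all genes tested 11.1% rose and 7.03% fell, and in lists this short 1 call is near those shares. Neuron markers summed to 75.7 and 84.1 after tMCAO against 95.6 and 97.1 before, and 2 of 6 measured members fell: Slc17a7, the vesicular glutamate transporter, read -1.66 and -1.60 against -0.58 and -0.21 (-1.23 ± 0.16, adjusted p = 0.00888), and the neurofilament Nefm fell by 1.09 on 1 later array, which was not called with the marked one kept (adjusted p = 0.0786). Of 7 astrocyte markers 1 rose, Gfap (2.10 ± 0.23, on 1 later array), and 2 read lower without passing the test, down to -0.68. Of 4 oligodendrocyte markers 1 rose, Mog, a call lost in all 4 fits that left out an array. Endothelial and mural markers rose in 5 of 10 with a median of 0.80, led by Tie1 (2.08 ± 0.28) and Vwf (1.73 ± 0.22), while 2 read lower without passing the test, down to -0.70. They summed to 26.3 and 26.4 against 16.9 and 17.3. Erythroid markers summed to 7.41 and 4.35 against 9.25 and 15.6, and lymphocyte markers to 1.31 and 0.651 against 0.868 and 0.984. Of these, 4 of 6 erythroid and 4 of 9 lymphocyte markers were well above background on all 4 arrays, so part of the sums is near background.

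**Figure D4:**
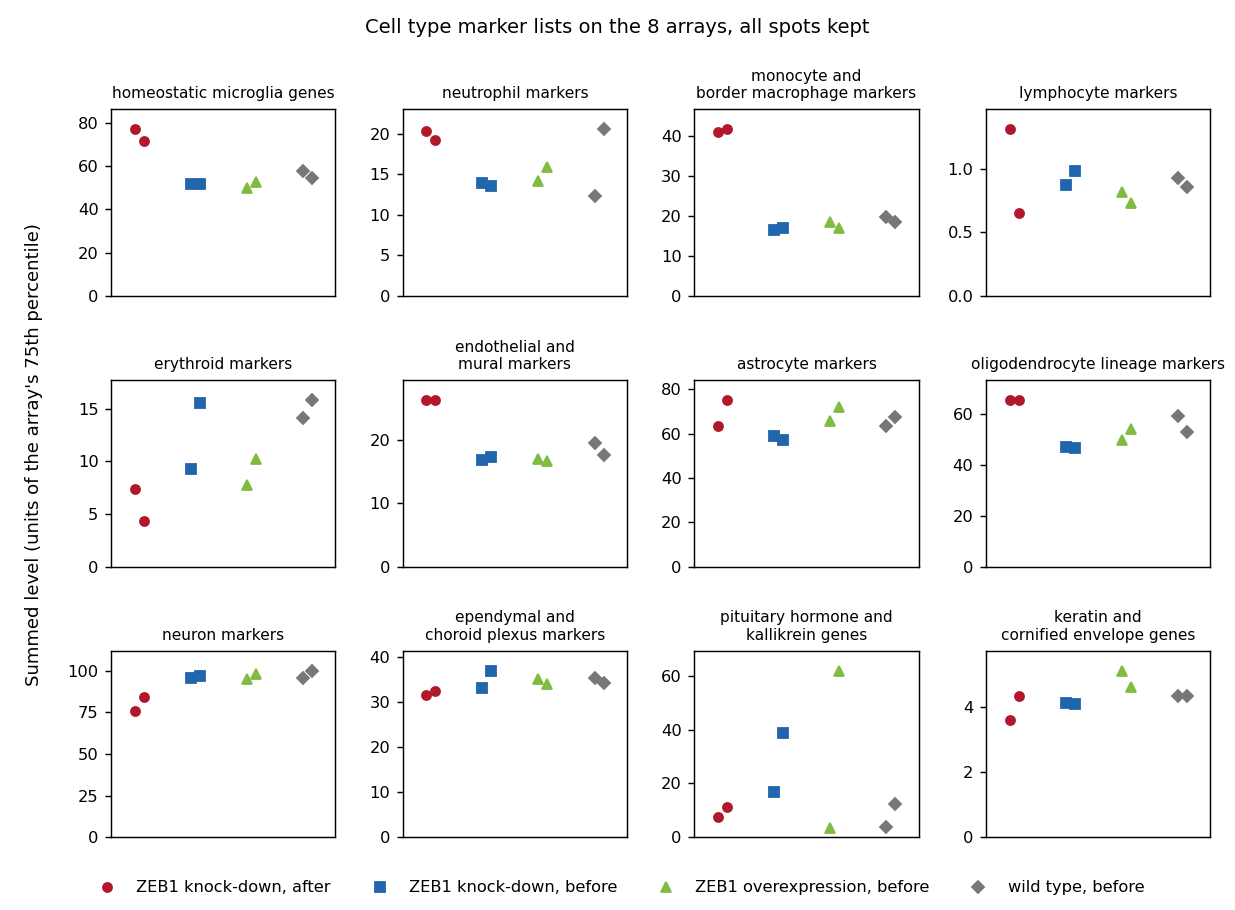
Summed level of each of 12 cell type marker lists on the 8 arrays, with marked spots included; the unit is the 75th percentile of the array and y axes start at 0; symbols as for the levels of single genes. The monocyte and border macrophage sum lies near 41 in the knock-down after tMCAO and under 20 in all arrays before, whereas the pituitary and kallikrein sum runs from 3.38 to 62.0 among the arrays before.

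Kallikreins had the largest falls. Klk1b4, a kallikrein of salivary gland and related tissue, read -7.67 and -7.84 after tMCAO, not well above background, against -2.74 and -0.99 before, and was at least 11.9-fold lower (adjusted p = 0.0272). Klk1b8 was at least 18.4-fold lower, and Klk1b3 and Klk1b22 fell by 4.59 and 4.25 on the log2 scale; these genes are close copies whose signals cannot be told apart. The kallikreins varied as widely among the early arrays: Klk1b4 read -7.90 on an overexpression array and -5.96 and -2.95 on the wild type arrays. All 4 calls were lost in each of the 4 fits that left out an array, none of the 4 was called with marked spots kept (adjusted p = 0.1325 to 0.1623), and the difference of Klk1b4 against overexpression before tMCAO was 0.14. The pituitary hormone and kallikrein list summed to 7.34 and 11.3 after tMCAO, 16.9 and 38.7 before, and 3.38 and 62.0 in overexpression before.

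Sh3rf2, a ubiquitin ligase, read -3.69 and -4.39 after tMCAO against -1.33 and -1.23 before, and no higher than -1.76 nor lower than -2.26 on the other early arrays, a difference of -2.76 ± 0.28 (adjusted p = 0.00512). Sh3rf2 and Il1bos, the antisense transcript at Il1b, were the 2 of the 12 largest falls called in all 4 fits that left out an array; Il1bos was at least 1.28-fold lower. The muscle ring finger gene Trim54 fell by 2.80 on the log2 scale. Obox5, Mup4, Spag6, F8 and Mroh7 were not well above background after tMCAO, at least 3.01, 3.74, 1.68, 1.46 and 1.20 times lower in that order. F8 was as low on the overexpression arrays before tMCAO (-7.85 and -6.73), a difference of -0.24. Mroh7 read -7.44 and -5.39 there and -6.30 and -7.10 in wild type. Most named genes were chosen because they were called, so the next count, beside 18.1% of all genes tested, follows from that choice. Over all named genes, 100 of 105 were called, 79 higher and 21 lower, and of the 78 with a value in all 4 such fits 33 were called in each. Beside the losses given above, Aif1, Ccl2, H2-D1, Psmb9, Socs3, C3ar1, Casp4, F8, H2-DMb1, Hspb1, Lcn2, Ms4a7, Oas2, Olfml3, Tie1 and Trim54 lost their call without either array before tMCAO. Birc3, Zc3h12a, Spag6 and Nefm lost it there and without replicate 1 after tMCAO, and Mup4 there and without replicate 2 after tMCAO. Mroh7 lost it in all 4 fits, and Bub1, Hk2, C3, Cd36 and Obox5 without replicate 2 before tMCAO.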

How the data were processed

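Total RNA of CX3CR1-enriched microglia was labelled with Cy3 and hybridised to 1-colour Agilent arrays, per the labels' protocols. Per the file headers, the deposited scanner files came from Agilent Feature Extraction 11.5.1.1; version 9.1 is named in the submitters' processing notes. They hold linear intensity per spot, background-subtracted by that software per the file headers, and other yes or no marks that the authors deposited with each spot. The authors also deposited a table of log2 values, with a 75th percentile near 0; in it the pair of knock-down columns after tMCAO appear exchanged between replicates when set against the scanner signals (correlation with their own file 0.975), so it served only as an alternative. No column lacked a sample.

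Here log2 of the processed signal minus the array's 75th percentile was taken, marked spots were left out, and probes well above background on both arrays of at least 1 group were kept. A gene is its probe with the highest mean level; 33767 of 56605 probes were named through RefSeq transcripts, and the others kept their accession. Limma 3.58.1 in R 4.3.3 was fitted to all 8 arrays of the slide with a mean per group, with Benjamini-Hochberg adjustment over all genes tested, after a test on simulated data. Of 39085 probes, none had the same scaled level on both replicates of either knock-down group. Unscaled file values were not compared in this way.

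The comparison, the 34 gene lists and the tests were chosen with earlier results of these data known. Named were Zeb1, Tgfb1, Cxcl1 and Cx3cr1, the 12 largest called changes in each direction with a gene symbol and unmarked spots on both arrays of both groups, and up to 4 called members of each list (2 uncalled where none was called). Members given with marked spots kept were chosen after their values were seen, as were Il1b, Tnf and Siglech. Promoters could be printed for up to 3 named genes holding a searched motif; which motifs and genes was settled afterwards, by largest difference. Some named list members are not reported here. Alternatives covered background, scaling, filters, probes, groups in the fit, a replicate block and each array left out.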

Additional observations from a re-analysis of the deposited data

How the results depend on the processing

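The cause of the differences between settings was not tested. The count of 4460 changed genes was 7447 with normexp background correction on median signals (chosen after seeing the files; 78.6% higher), 2118 without a filter on dim probes, 2310 with only the 4 knock-down arrays in the fit, 1858 against overexpression and 1972 against wild type before tMCAO. Leaving out each array gave 825 to 3789. The other settings gave 4222 to 5521. Most named genes were chosen because they were called in the main fit, so other settings could mainly keep or lose their calls. Of 1731 values of named genes under the 17 settings, 1423 kept direction and call, 298 lost the call, 1 gained it and 9 changed sign. Those were Cd3e with normexp (0.0016), Ndufb5 with the array median (-0.045) and against overexpression (-0.057), Klk1b4 (0.14), Klk1b22 (0.11), Egr2 (0.42) and Krt14 (-0.31) against overexpression, and, leaving out each array, Ndufb5 (-0.045 to 0.49) and Zeb1 (-0.56 to 0.12).

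List medians moved by more than the replicate spread in 44 of 578 cases. With normexp, cholesterol genes had 0.47 and matrix metalloproteinases 1.28; with quantile normalization the latter had 1.56. With the array median subtracted, the medians were 0.072 for lysosome, 0.017 for cholesterol, -0.088 for glycolysis, 1.60 for matrix metalloproteinases, -0.23 for TGF-beta, 0.75 for cell death, -0.10 for ribosomal, -0.23 for respiratory and -0.61 for ependymal genes. With marked spots kept they were 2.43 for alternative activation, 0.61 for lysosome, 1.37 for matrix metalloproteinases and 0.40 for neutrophil genes, and in the authors' deposited value table they came to 2.41, 1.35 and 0.38 for alternative activation, matrix metalloproteinases and neutrophil genes. Without a dim filter chemokines had 2.14. With only probes well above background on all 4 arrays matrix metalloproteinases had 1.18 and pituitary and kallikrein genes -0.93. With the mean of all probes TGF-beta genes had -0.18, ribosomal -0.086, respiratory 0.29, oligodendrocyte -0.14 and neuron genes -1.11. Against overexpression, matrix metalloproteinases had 1.71, respiratory -0.12 and pituitary and kallikrein genes -0.35; against wild type, cholesterol had 0.12, matrix metalloproteinases 1.72 and pituitary and kallikrein genes -0.24. Leaving out each array, alternative activation ran from 0.51 to 1.59, chemokines from 2.10 to 3.26, cholesterol from 0.22 to 0.77, ribosomal from 0.23 to 0.66, heme and iron from 0.058 to 1.04, matrix metalloproteinases from 1.13 to 2.06, pituitary and kallikrein genes from -4.26 to -1.66 and respiratory from -0.069 to 0.45.

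Replicate numbers are shared by the groups, but nothing in the labels says that they pair samples. Deviations of same-numbered arrays correlated at 0.07 across 19942 genes. With the replicate block 4686 genes were called, 67.8% of them higher. With 2 arrays per group, precision is limited by their number, and dim probes give bounds only.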
